A study of Drosophila melanogaster with 6 samples.

Results

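Genes that build the contractile apparatus of muscle were followed in whole Drosophila melanogaster embryos that lack trh and in wild type embryos. The set was a list of 35 genes for the sarcomere and for the integrins that anchor muscle, matched by symbol. It was drawn up with earlier results of these data known. A probe set naming the gene alone was found for 27 of them, among 11981 genes measured in this way, and each gene was represented by its brightest such probe set. The other 8 genes, Mhc, Act57B, Tm1, wupA, TpnC25D, TpnC47D, Chd64 and Unc-89, were not analysed here.

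The 3 trh null arrays carried RNA of embryos homozygous for a trh null mutation, recognised by the absence of the GFP of the balancer chromosome, and the 3 wild type arrays carried RNA of wild type embryos. The labels name neither the trh allele nor the wild type strain. Both genotypes were collected over 8 h, aged for 11 h and passed through a COPAS biosorter, and the labels place all of them at stages 11 to 16, although the description of the wild type samples runs to stage 17. Separate collections for the arrays of each genotype are not stated in the labels, so the spread behind each p-value is that between these arrays and may be technical. All RNA came from whole embryos, in which fewer muscle cells and less muscle RNA per cell cannot be told apart.

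The sarcomere is the repeating unit of striated muscle, in which myosin thick filaments slide along actin thin filaments. Calcium binding to troponin C moves troponin and tropomyosin on the thin filament and lets myosin engage, while titin-like giant proteins and the Z-disc hold the filaments in register, and integrins fasten the muscle ends to tendon cells. In the fly embryo many of the sarcomere genes are switched on late, and most exist as gene families or isoforms used in different muscles. The trh gene encodes a bHLH-PAS transcription factor of tracheal and salivary duct cells, and its own level was not analysed here.

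One array stood apart from its group. On wild type array 2 the 27 muscle genes lay a median of 0.32 below the mean of wild type arrays 1 and 3 on the log2 scale, while all 11981 genes lay 0.08 above it. Array 2 was the lowest of the wild type arrays for 18 of the 27 muscle genes, against 32.9% of all genes. For 6 muscle genes the gap was at least 1, which was seen in 5.53% of all genes. Results that rest on this array are therefore given with and without it. The array was picked for its distance from its group in these same genes, so p-values without it may be too small. Median log2 signal was 6.18 to 6.20 on trh null arrays and 6.16 to 6.22 on wild type arrays, and the number of arrays limits the precision. The actin control probe sets, a measure of RNA length, gave 3′ minus 5′ log2 signals of 0.76 ± 0.03 on trh null arrays and 1.36 ± 0.09 on wild type arrays (SD, n = 3 each; exact two-sided permutation test, p = 0.1, the smallest this design allows). Wild type array 2, at 1.30, lay close to wild type array 3, at 1.31, and below array 1, at 1.46. The GAPDH control probe sets gave 3′ minus 5′ differences of 0.90, 0.93 and 0.69 on trh null arrays, against 1.17, 1.03 and 1.18 on wild type arrays, where array 2 was the lowest (exact two-sided permutation test, p = 0.1). The part of RNA length in the genotype differences was not tested.

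Most of the muscle genes that passed the test were lower in trh null embryos. By limma, with p-values adjusted over all probe sets by the Benjamini-Hochberg method, 9 of the 27 genes fell at an adjusted p under 0.05, against 7.31% of all genes, 1 rose, against 6.79% of all genes, and 17 did not pass. The genes that fell were TpnC73F, Prm, up, Mf, Tm2, Mp20, Mlc1, Mlp60A and Actn, and the gene that rose was Msp300. The median log2 difference between trh null and wild type was -0.42 over the 27 genes and 0.00 over all genes. In 13 genes every trh null array lay below every wild type array, which held for 19.4% of all genes, and in 2 genes every trh null array lay above, which held for 18.8% of all genes. Without wild type array 2, 14 muscle genes fell, against 14.8% of all genes, and 3 rose, against 17.4% of all genes, with a median difference of -0.54. The genes added on the falling side were Mlc2, Act87E, bt, Strn-Mlck and Zasp66, and those added on the rising side were sls and TpnC4.

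**Figure D1:**
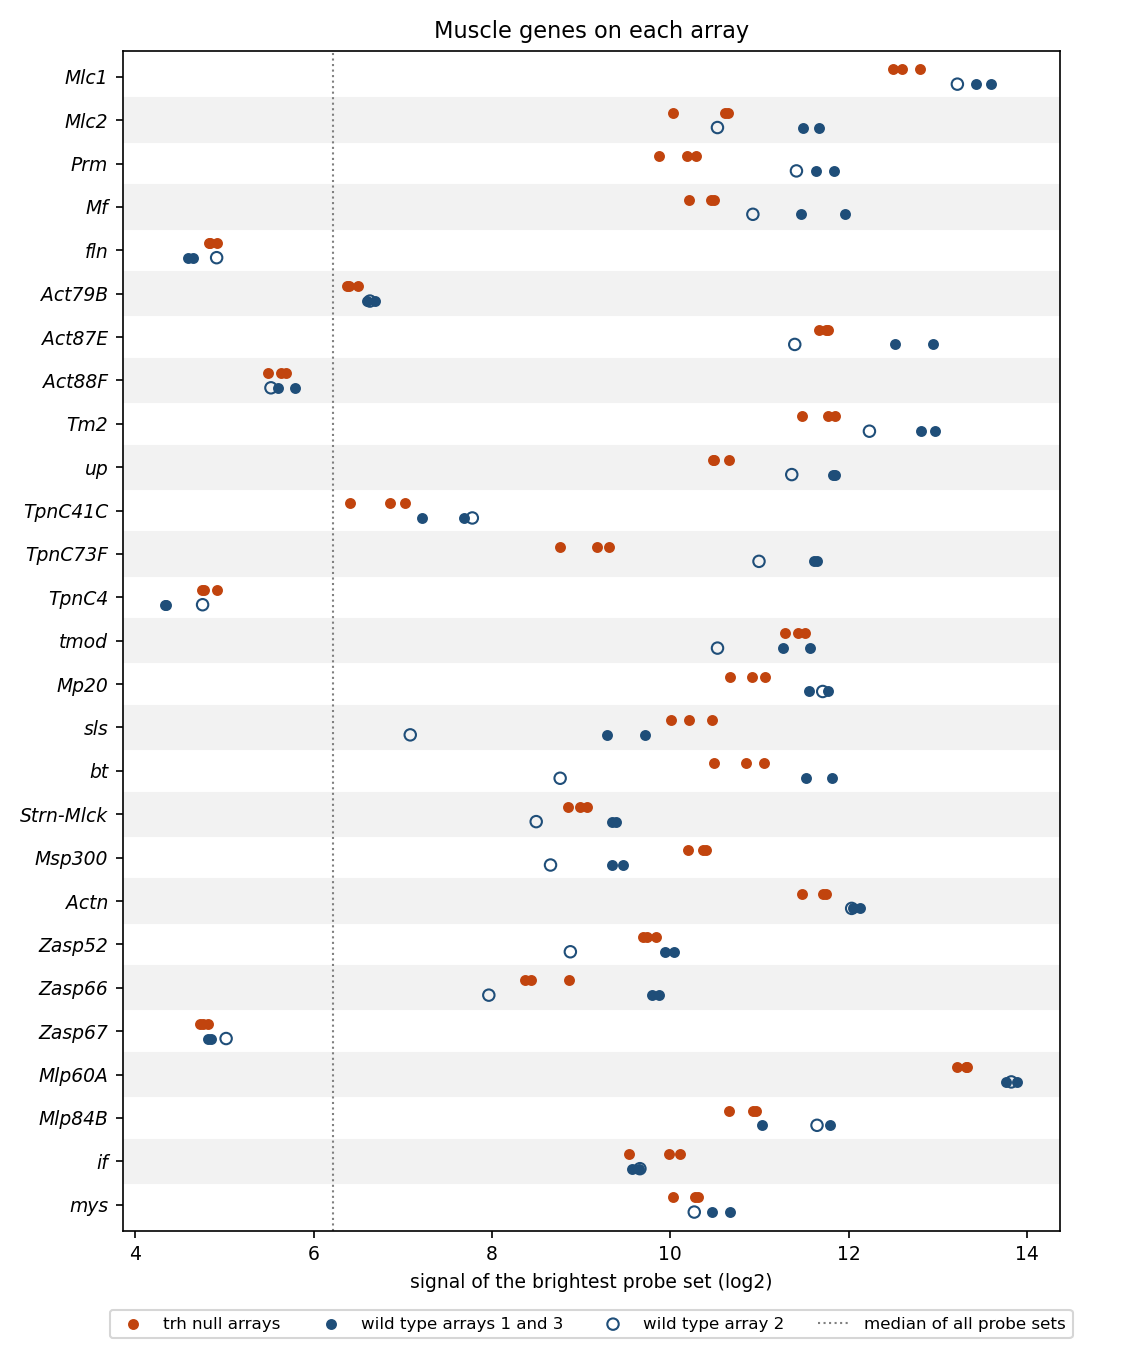
Log2 signal of the brightest probe set of each of the 27 muscle genes on the 3 trh null arrays (orange, upper of each pair of rows) and the 3 wild type arrays (blue, lower), with wild type array 2 as an open circle and the median of all probe sets as a dotted line. For TpnC73F, Prm and up the trh null points lie far to the left of all wild type points, while for sls and bt the open circle lies more than 2 below the other wild type arrays.

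The largest fall was that of a troponin C gene. TpnC73F, the calcium sensor of the thin filament in larval body wall muscle (chromosome arm 3L), had log2 signals of 8.76, 9.31 and 9.18 on trh null arrays, against 11.65, 11.00 and 11.62 on wild type arrays. The genotypes were far apart, with every trh null value below every wild type value. TpnC73F was 5.04-fold lower in trh null embryos (difference -2.33, SE 0.22, limma adjusted p = 0.00232). The call held with each array left out in turn (limma adjusted p from 0.000257 to 0.0202). A second, dim probe set of TpnC73F lay below the array median on all arrays and did not pass (-0.13, limma adjusted p = 0.415).

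The genes up and Tm2, also of thin filament regulation, fell as well. The troponin T gene up, which ties troponin to tropomyosin, had 10.49, 10.66 and 10.48 in trh null embryos, against 11.85, 11.36 and 11.83 in wild type. The groups did not overlap, and up fell 2.20-fold (-1.14, SE 0.15, limma adjusted p = 0.00652), a call that held with each array left out (at most 0.0446). With the replicate number as a block the call ended (limma adjusted p = 0.0522). The tropomyosin gene Tm2 had 11.47, 11.85 and 11.77 in trh null embryos, against 12.82, 12.23 and 12.97 in wild type. Its fall was 1.97-fold (-0.98, SE 0.21, limma adjusted p = 0.0326), and the call ended when any 1 array other than wild type array 2 was dropped (limma adjusted p from 0.0747 to 0.123). Its probe set is of a class that can also match transcripts of other genes, so signal of the related Tm1 cannot be told apart from it.

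TpnC41C, another troponin C gene, had 6.41, 6.85 and 7.02 in trh null embryos, against 7.22, 7.78 and 7.69 in wild type. Its groups did not overlap, but the difference of -0.80 did not pass (SE 0.21, limma adjusted p = 0.0593). It passed without wild type array 1 (-0.97, limma adjusted p = 0.0442) and with a trended robust prior (limma adjusted p = 0.0490). It also passed with the replicate number as a block (limma adjusted p = 0.0376), although a pairing by these numbers was not seen in the values. TpnC4, the troponin C of flight muscle, lay below the array median on all 6 arrays, at 4.77, 4.75 and 4.92 in trh null embryos, against 4.34, 4.76 and 4.34 in wild type. Wild type array 2 lay among the trh null values, and the difference was 0.34 (SE 0.13, limma adjusted p = 0.175). Without that array it was 0.47 and passed (limma adjusted p = 0.00715). Of the 5 measured genes of tropomyosin and troponin, 3 fell, against 7.31% of all genes, none rose and 2 did not pass.

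Of 5 measured thick filament genes, 3 fell, against 7.31% of all genes, and 2 did not pass. Prm, for paramyosin, the core of invertebrate thick filaments (3L), had 9.88, 10.18 and 10.29 in trh null embryos, against 11.63, 11.42 and 11.84 in wild type. All trh null values were more than 1 below all wild type values. Prm fell 2.85-fold (-1.51, SE 0.15, limma adjusted p = 0.00268), and the call held with each array left out (at most 0.0221). A second probe set, whose probes can match other transcripts, fell by 0.92 (SE 0.16, limma adjusted p = 0.0160).

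The gene Mf encodes myofilin, a thick filament core protein of insects (3R). Its brightest probe set had 10.21, 10.49 and 10.46 in trh null embryos, against 11.47, 10.93 and 11.96 in wild type. The genotypes did not overlap, although wild type array 2 lay nearest to the trh null values. The difference of -1.07 (SE 0.26, limma adjusted p = 0.0453) ended when any 1 array other than wild type array 2 was dropped (limma adjusted p from 0.0611 to 0.158), with cyclic loess (0.0615) and with the mean over probe sets (0.0691). Without wild type array 2 the second Mf probe set, which did not pass with all arrays (-1.67, limma adjusted p = 0.0900), passed with a difference of -2.26 (limma adjusted p = 0.000959).

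The myosin light chain genes differed in how they passed. Mlc1, the essential type light chain (3R), had 12.50, 12.80 and 12.60 in trh null embryos, against 13.43, 13.22 and 13.60 in wild type. Its fall of 0.78 (log2 scale, SE 0.13, limma adjusted p = 0.0140) was lost without trh null array 1 or 3 (limma adjusted p = 0.0666 and 0.0761). Mlc2, the regulatory light chain of muscle myosin, had 10.03, 10.64 and 10.62 in trh null embryos, against 11.67, 10.53 and 11.48 in wild type. Here wild type array 2 lay within the trh null range. The difference of -0.80 did not pass (SE 0.33, limma adjusted p = 0.185), and without that array it was -1.15 (limma adjusted p = 0.00728). The gene fln, for the flight muscle protein flightin, lay below the array median on all arrays, at 4.83 to 4.92 in trh null and 4.59 to 4.91 in wild type embryos (0.15, limma adjusted p = 0.430).

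None of the 3 measured muscle actin genes passed with all arrays. Act87E, an actin of larval body wall muscle, had 11.67, 11.75 and 11.77 in trh null embryos, against 12.52, 11.40 and 12.94 in wild type. Wild type array 2 was below all trh null arrays and the other wild type arrays above them. The difference was -0.56 (95% interval -1.45 to 0.34, limma adjusted p = 0.395). It was -1.003 without wild type array 2 (limma adjusted p = 0.00261). The Act87E probe set is of the class shared between transcripts, and actin genes are close in sequence, so other actins may contribute.

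Act79B, an actin of adult leg and thoracic muscles, had 6.39, 6.50 and 6.37 in trh null embryos, against 6.60, 6.63 and 6.69 in wild type. These values lay just above the array median in both genotypes and did not overlap, with a difference of -0.22 (limma adjusted p = 0.125). Act88F, the flight muscle actin, lay below the array median throughout, at 5.49 to 5.69 in trh null and 5.52 to 5.79 in wild type embryos. Its difference of -0.03 (95% interval -0.28 to 0.21) changed sign with quantile normalization, with cyclic loess and without wild type array 1 or trh null array 1. The 4 muscle genes that lay below the array median on all 6 arrays were fln, Act88F, TpnC4 and Zasp67, and a change in them could not be measured well near background.

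Among thin filament associated genes, Mp20, for a calponin-like muscle protein (2R), had 10.67, 11.06 and 10.92 in trh null embryos, against 11.56, 11.71 and 11.77 in wild type. Wild type array 2 lay between the other wild type arrays here. Mp20 fell 1.73-fold (-0.79, SE 0.12, limma adjusted p = 0.0114), and the call was lost without trh null array 3 (limma adjusted p = 0.0597). The gene tmod, for tropomodulin, which caps thin filament ends, had 11.29, 11.43 and 11.52 in trh null embryos, against 11.57, 10.53 and 11.27 in wild type. The groups overlapped, and the difference was 0.29 (95% interval -0.33 to 0.91) and -0.01 without wild type array 2. Probes of this brightest tmod set can match transcripts of other genes. A dimmer second tmod probe set had 6.57, 6.49 and 6.75 in trh null embryos, against 5.60, 5.70 and 5.51 in wild type, and rose 2.00-fold (1.00, SE 0.10, limma adjusted p = 0.00253). The probe sets of tmod therefore disagreed, and the mean over both rose by 0.64 on the log2 scale (limma adjusted p = 0.0306).

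Z-disc genes numbered 6, of which 2 fell, against 7.31% of all genes, and 4 did not pass. Mlp60A, a muscle LIM protein gene (2R), had 13.22, 13.33 and 13.31 in trh null embryos, against 13.77, 13.83 and 13.89 in wild type. These were among the tightest groups of the set, with an SD of 0.06 in each genotype, and Mlp60A fell 1.45-fold (-0.54, SE 0.08, limma adjusted p = 0.00854). The call was lost without trh null array 3 (limma adjusted p = 0.0520). A second Mlp60A probe set fell by 0.38 on the log2 scale (limma adjusted p = 0.0444), and the third did not pass (-0.20).

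The alpha-actinin gene Actn, whose product cross-links actin at the Z-disc (X), had 11.48, 11.72 and 11.75 in trh null embryos, against 12.13, 12.03 and 12.05 in wild type. Its fall of 0.42 (log2 scale, SE 0.10, limma adjusted p = 0.0404) ended when any 1 array other than wild type array 2 was dropped (limma adjusted p from 0.0843 to 0.120), with quantile normalization, with a trended robust prior and with the dimmest probe sets left out. Mlp84B, the second muscle LIM protein gene, had 10.66, 10.96 and 10.93 in trh null embryos, against 11.03, 11.65 and 11.80 in wild type. It did not overlap between genotypes and did not pass (-0.64, limma adjusted p = 0.111), except without wild type array 1 (-0.87, limma adjusted p = 0.0206). Probes of its probe set can match transcripts of other genes.

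None of the Zasp genes, which encode PDZ domain proteins, passed with all arrays. Zasp66 had 8.44, 8.87 and 8.37 in trh null embryos, against 9.79, 7.97 and 9.88 in wild type. Wild type array 2 was the lowest of all 6 arrays. The difference of -0.65 (limma adjusted p = 0.473) was -1.27 without it (limma adjusted p = 0.00214). Zasp52 had 9.69, 9.74 and 9.83 in trh null embryos, against 10.05, 8.88 and 9.94 in wild type. Its difference was 0.13 with all arrays and -0.24 without wild type array 2, and passed in neither (limma adjusted p = 0.827 and 0.0782). Zasp67, below the array median on all arrays, had a difference of -0.13 (limma adjusted p = 0.376) and did not pass without wild type array 2 either (-0.07, limma adjusted p = 0.511).

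**Figure D2:**
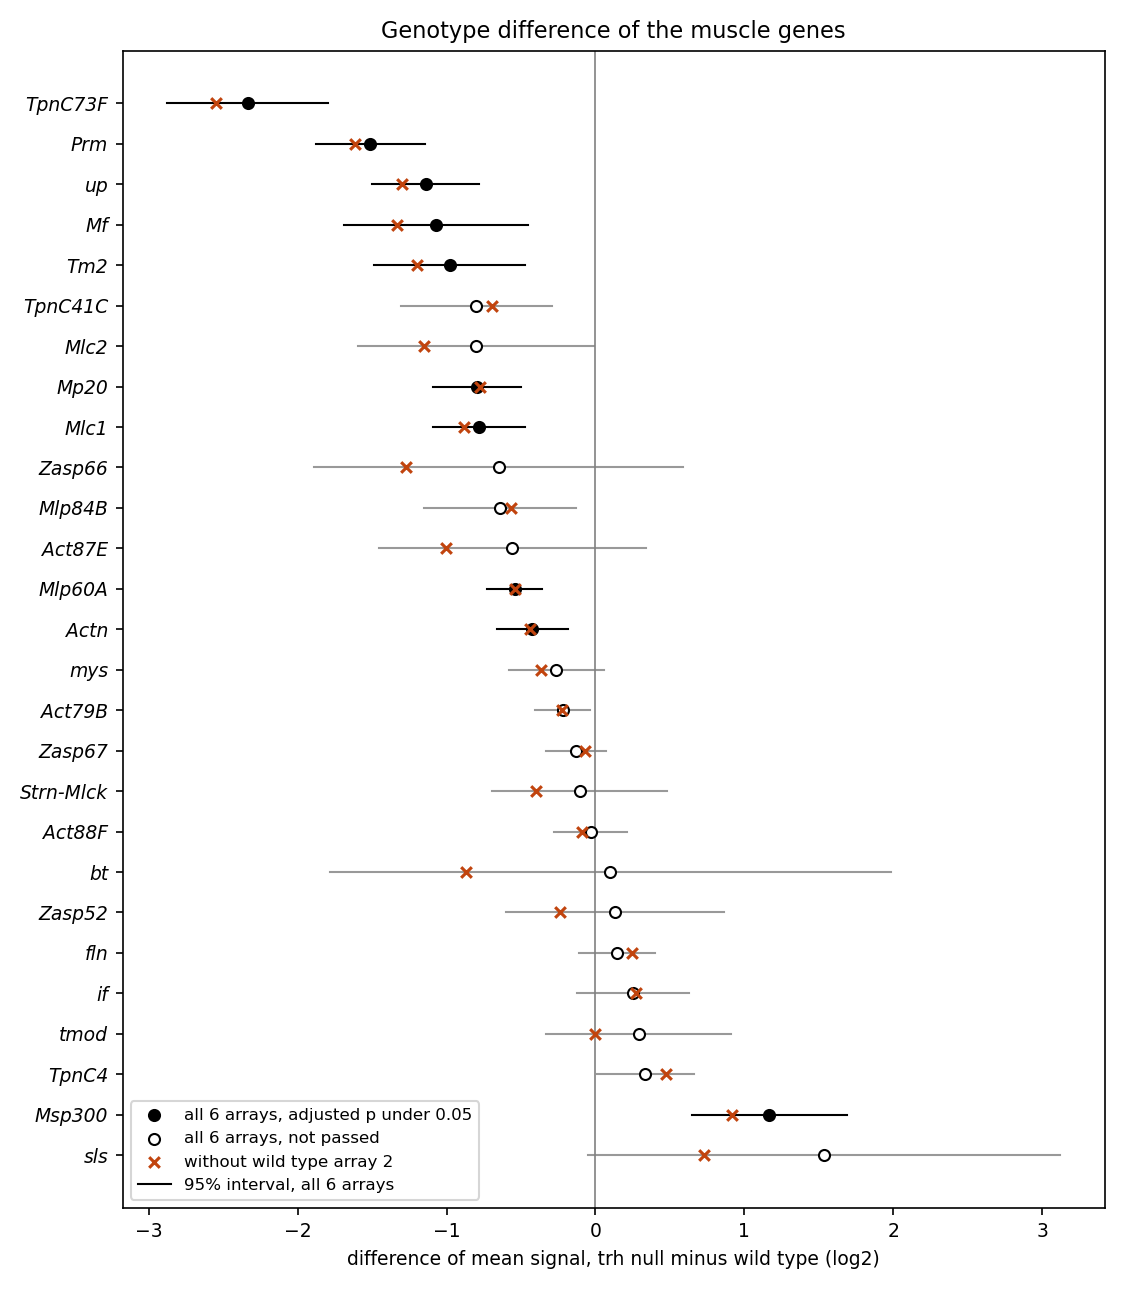
Difference of mean log2 signal, trh null minus wild type, for the 27 muscle genes, with all 6 arrays (circles, filled where adjusted p is under 0.05, with 95% intervals) and without wild type array 2 (orange crosses). Crosses lie left of circles for most genes, and for bt the estimate is 0.10 with all arrays and -0.87 without that array.

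Of 4 measured giant and kinase genes of the sarcomere, 1 rose, against 6.79% of all genes, and 3 did not pass. The gene sls encodes Sallimus, a titin-like spring between Z-disc and thick filament (3L, 75.9 kb). Its brightest probe set had 10.01, 10.21 and 10.47 in trh null embryos, against 9.72, 7.08 and 9.30 in wild type. Every trh null array was higher, but wild type array 2 lay more than 2 below the other wild type arrays, and the difference of 1.53 did not pass (SE 0.66, limma adjusted p = 0.201). Without that array the difference was 0.73 and passed (limma adjusted p = 0.0241). The second sls probe set had 9.20, 9.45 and 9.66 in trh null embryos, against 10.09, 7.43 and 9.63 in wild type. Without wild type array 2 its difference was -0.42 (limma adjusted p = 0.134), the opposite direction to the first.

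The gene bt encodes projectin, a titin-related kinase of the thick filament, on chromosome 4. It had 10.50, 10.85 and 11.05 in trh null embryos, against 11.52, 8.77 and 11.81 in wild type. The trh null arrays lay between wild type array 2 and the other wild type arrays, and the difference was 0.10 (95% interval -1.78 to 1.98, limma adjusted p = 0.953). Without wild type array 2, bt was lower in trh null embryos by a log2 difference of -0.87 (limma adjusted p = 0.0134). Strn-Mlck, for the titin-like stretchin and a myosin light chain kinase, had 8.85, 8.99 and 9.07 in trh null embryos, against 9.39, 8.50 and 9.35 in wild type. Its difference was -0.11 with all arrays (limma adjusted p = 0.828) and -0.40 without wild type array 2 (limma adjusted p = 0.0187). The fall without that array was seen in the brightest Strn-Mlck probe set only. There the second differed by -0.006 and the third, below the array median on all arrays, by 0.04 (limma adjusted p = 0.967 and 0.689).

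Msp300 encodes giant nesprins, which link muscle nuclei to the cytoskeleton and reach the Z-disc (2L, 106 kb). Its brightest probe set had 10.20, 10.40 and 10.37 in trh null embryos, against 9.35, 8.66 and 9.47 in wild type. All trh null arrays were higher, and the rise was 2.24-fold (1.17, SE 0.22, limma adjusted p = 0.0205). Dropping any 1 trh null array ended the call (limma adjusted p between 0.0707 and 0.0954). The mean over the Msp300 probe sets differed by 0.29 and did not pass (limma adjusted p = 0.287). None of the other 5 Msp300 probe sets passed with all arrays. The second brightest had 8.44, 8.69 and 8.75 in trh null embryos, against 9.13, 7.39 and 9.13 in wild type. Without wild type array 2 that second probe set fell by 0.50 on the log2 scale (limma adjusted p = 0.0160) while the brightest still rose (0.92, limma adjusted p = 0.00115).

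The integrin genes did not pass with all arrays. The gene mys encodes the beta PS subunit and if encodes the alpha PS2 subunit, which pair on the muscle side of the attachment. The brightest mys probe set had 10.03, 10.27 and 10.31 in trh null embryos, against 10.67, 10.27 and 10.47 in wild type, with a difference of -0.26 (95% interval -0.58 to 0.05). Probes of that brightest set can match transcripts of other genes. A second mys probe set differed by -0.28 (limma adjusted p = 0.195) and passed without wild type array 2 (-0.36, limma adjusted p = 0.0387). The gene if had 9.53, 9.99 and 10.11 in trh null embryos, against 9.65, 9.66 and 9.57 in wild type, with a difference of 0.25 (95% interval -0.12 to 0.63). Both overlapped between genotypes, and the intervals do not cover a change of 1 on the log2 scale.

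Several genes gave different answers from different probe sets, so the ratio between probe sets of the same gene was examined on each array. Such a ratio shows that the signals of the probe sets changed unequally and not which of them changed. The positions of the probes were not used here, and the parts of RNA length and of probes that match other transcripts were not tested. For sls the brightest over the second probe set gave log2 ratios of 0.81, 0.77 and 0.81 in trh null embryos, against -0.37, -0.34 and -0.34 in wild type. The ratio was nearly the same on all wild type arrays, including array 2, where both probe sets were low, and was 2.21-fold higher in trh null embryos (1.14, SE 0.07, limma adjusted p = 0.000239). It passed with each array left out (1.13 to 1.16, limma adjusted p at most 0.00337). For Prm the brightest over the second gave -0.26, -0.17 and -0.10 in trh null embryos, against 0.46, 0.45 and 0.31 in wild type. The Prm ratio was lower in trh null embryos (-0.59, SE 0.09, limma adjusted p = 0.00439) and also passed with each array left out (at most 0.0267).

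For Msp300 the brightest over the second probe set gave 1.76, 1.71 and 1.62 in trh null embryos, against 0.23, 1.27 and 0.34 in wild type. Wild type array 2 differed from arrays 1 and 3 here, and the call (1.09, limma adjusted p = 0.0257) ended when any 1 array other than that one was dropped (limma adjusted p from 0.0682 to 0.0857). The brightest over the third Msp300 probe set differed by 1.03 (limma adjusted p = 0.00793) and passed with each array left out (at most 0.0397). By contrast the mys ratio gave 0.43, 0.53 and 0.53 in trh null embryos, against 0.48, 0.46 and 0.51 in wild type, with a difference of 0.01 (SE 0.08, limma adjusted p = 0.910). Of 9 such ratios in 7 muscle genes, 5 passed, against 40.2% of the 528 ratios tested over all genes. The fifth was the brightest over the third probe set of sls (0.93, limma adjusted p = 0.0482), which was lost without any 1 array other than wild type array 1 or 2 (limma adjusted p from 0.0779 to 0.141), with quantile normalization and with cyclic loess. The ratios of Mf, Strn-Mlck and Zasp66 did not pass with all arrays and did without wild type array 2.

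**Figure D3:**
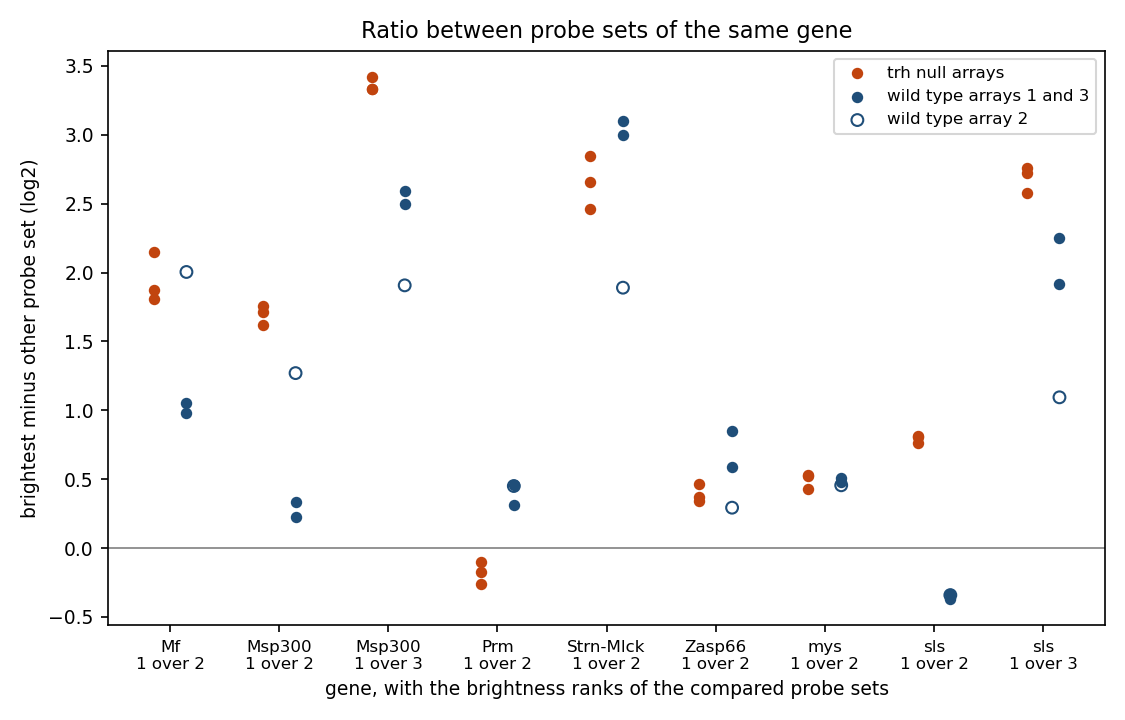
Log2 ratio of the brightest over another probe set of the same gene on each array, for the 9 pairs in 7 muscle genes in which both probe sets were brighter than the median (trh null orange and left, wild type blue and right, wild type array 2 open). For sls, brightest over second, the wild type points lie together near -0.35 and the trh null points near 0.79, while for mys the genotypes overlap.

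The low values of wild type array 2 were not spread evenly over the muscle genes. Against the mean of wild type arrays 1 and 3 it was -2.90 for bt, -2.42 for sls, -1.87 for Zasp66, -1.34 for Act87E, -1.11 for Zasp52 and -1.05 for Mlc2 on the log2 scale. It was -0.01 for Mlp60A, 0.05 for Mp20, 0.23 for Mlp84B and 0.33 for TpnC41C. Among muscle genes brighter than the median, the median gap was -0.02 for the 9 genes under 5 kb, -0.48 for the 7 genes of 5 to 20 kb and -0.89 for the 7 genes over 20 kb. All genes of the same brightness gave 0.22, -0.20 and -0.47 in these length classes. Across the 27 muscle genes the gap and the logarithm of gene length had a Pearson r of -0.53 and a Spearman rho of -0.50, and across 11883 genes -0.37 and -0.34. These are descriptions over genes that share the same 3 arrays, and gene length here includes introns. Act87E and Mlc2 were short genes with a large gap, and if was a long gene with almost none (0.05). The genotype difference also varied with length among the muscle genes brighter than the median. From the shortest class to the longest its median was -0.78, -0.98 and 0.25. Without wild type array 2 it was -0.78, -1.27 and -0.01. All genes of the same brightness gave 0.02, 0.09 and 0.15, and 0.08, 0.01 and 0.02 without that array. The part of gene length in the genotype differences was not tested.

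**Figure D4:**
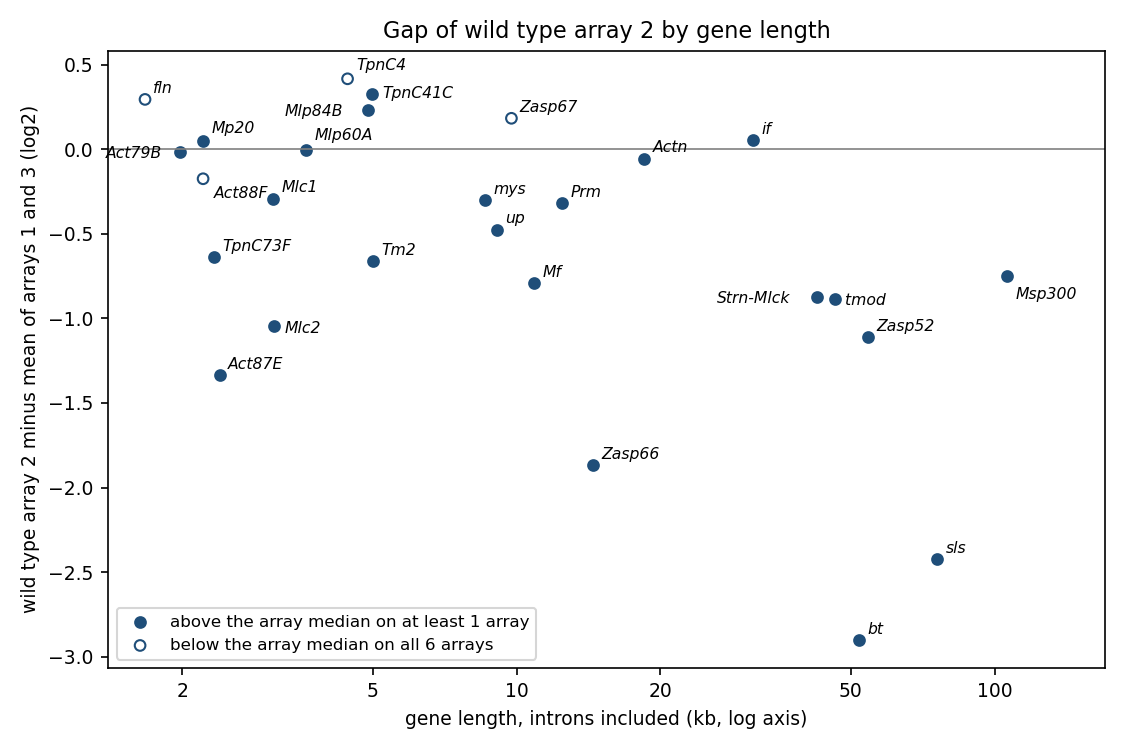
Log2 signal of wild type array 2 minus the mean of wild type arrays 1 and 3 for each of the 27 muscle genes, against gene length on a log axis. The lowest points are bt and sls, and open circles mark the 4 genes below the array median on all arrays.

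The trh null arrays also differed among themselves in these genes. Array 1 was the lowest of the trh null arrays for 22 of the 27 muscle genes, against 38.6% of all genes. The range over the trh null arrays had a median of 0.28 for muscle genes and 0.16 for all genes. The median SD was 0.15 in trh null and 0.30 in wild type embryos for muscle genes, and 0.08 in trh null and 0.20 in wild type embryos for all genes.

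Genes that act with the sarcomere moved in both directions. The 4 lists of attachment, calcium handling, Z-disc and chaperone, and muscle transcription genes held 45 genes, of which 33 were measured. The rest were not matched by symbol to a probe set naming the gene alone. Of the 33 genes 7 fell and 5 rose, against 7.31% and 6.79% of all genes. Among 12 attachment partners, 2 fell, 2 rose and 8 did not pass. The gene stck, for the adaptor PINCH of the integrin complex, had 11.15, 11.13 and 11.08 in trh null embryos, against 11.78, 11.80 and 11.81 in wild type, and fell by 0.68 (log2 scale, SE 0.07, limma adjusted p = 0.00268). The integrin gene scb, for the alpha PS3 subunit, had 8.57, 8.67 and 8.78 in trh null embryos, against 7.11, 7.18 and 7.15 in wild type, and rose 2.88-fold (1.52, SE 0.08, limma adjusted p = 0.000390). Both held with each array left out. Fit2, for a kindlin, fell by 0.57 and Lrt, a tendon cell gene, rose by 0.57 on the log2 scale, calls that ended when any 1 trh null array was dropped (limma adjusted p between 0.0690 and 0.0934), and that of Lrt also without wild type array 3 (0.0502).

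Of 6 genes of excitation and calcium handling, 3 fell, against 7.31% of all genes, and 3 did not pass. The junctophilin gene jp, which joins surface and internal membranes, fell by 0.99 (log2 scale, SE 0.11, limma adjusted p = 0.00339). Scp1, for a sarcoplasmic calcium-binding protein, fell by 1.20 and Ca-beta, a calcium channel subunit, by 0.44 on the log2 scale. Their calls ended when any 1 trh null array was dropped (limma adjusted p between 0.0617 and 0.118), that of Scp1 also without wild type array 3 (0.0565) and that of Ca-beta without wild type array 1 (0.0617). The mean over the Ca-beta probe sets was 0.03. Signals of jp, Scp1 and Ca-beta lay below the array median on all trh null arrays. On wild type arrays they lay above it, at 6.24 to 6.34 for Ca-beta. Signal near background therefore limits what can be said of the sizes of these falls. In the Z-disc and chaperone list, l(2)efl, a small heat shock protein gene, and tn, the TRIM-NHL gene thin, fell and 6 of 8 did not pass. The fall was 1.08 for l(2)efl (limma adjusted p = 0.00124) and 0.78 for tn (limma adjusted p = 0.0100, and 0.0516 without trh null array 3) on the log2 scale.

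In the muscle transcription list 3 of 7 genes rose, against 6.79% of all genes, none fell, against 7.31%, and 4 did not pass. Mef2 was not among the 7 genes measured. Him, which holds back muscle differentiation by acting against Mef2, had 10.42, 10.10 and 10.07 in trh null embryos, against 8.88, 8.85 and 8.68 in wild type, and rose 2.62-fold (1.39, SE 0.12, limma adjusted p = 0.00180). The call held with each array left out (at most 0.0161). The gene lmd, a factor of fusion-competent myoblasts, rose by 0.89 and twi, the mesoderm determinant, by 0.63 on the log2 scale, calls that ended when any 1 trh null array was dropped (limma adjusted p between 0.0514 and 0.0863). None of the 4 cytoplasmic actin-binding and myosin genes measured (chic, cib, tsr and Mlc-c) passed.

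Markers of other cell types moved beside these results. Of 7 genes listed as hemocyte markers 2 rose, against 6.79% of all genes, with a mean log2 signal over the list of 7.82 to 7.89 on trh null arrays and 7.47 to 7.58 on wild type arrays. They were Pxn, for peroxidasin (0.94, limma adjusted p = 0.00173), and gcm (0.47, limma adjusted p = 0.0261), whose call ended when any 1 trh null array was dropped (0.0720 to 0.122), without wild type array 3 (0.0600) and with a trended robust prior (0.0721). The other 5 hemocyte genes did not pass, with differences from -0.08 for Hml to 0.62 for srp. Of 6 tracheal markers 2 fell, against 7.31% of all genes. They were Gasp (-1.53, limma adjusted p = 0.00434) and btl (-1.38, limma adjusted p = 0.00153), and the mean over the list was 10.04 to 10.25 on trh null arrays and 10.66 to 11.04 on wild type arrays. None of 7 neuronal markers passed with all arrays, with a list mean of 7.68 to 7.95 on trh null arrays and 7.35 to 7.78 on wild type arrays. The largest difference among them was that of elav (1.65, limma adjusted p = 0.0819), which passed without wild type array 2 (1.88, limma adjusted p = 0.0357) or 3 (1.05, limma adjusted p = 0.0136). The next, futsch (1.15, limma adjusted p = 0.0593), passed without wild type array 2 (0.79, limma adjusted p = 0.00280), with median centring (0.0497), with a trended robust prior (0.0453) and with the dimmest probe sets left out (0.0477). Without wild type array 2 the neuronal list was mixed, with 3 genes that rose and 2 that fell, against 17.4% and 14.8% of all genes. Beside elav and futsch, brp rose (0.42, limma adjusted p = 0.0214). The genes that fell were cpx (-1.20, limma adjusted p = 0.00269) and ChAT (-0.45, limma adjusted p = 0.0148). These 3 genes are named after their values were seen. None of 3 fat body markers passed, with a list mean of 8.42 to 8.49 on trh null arrays and 8.11 to 8.58 on wild type arrays. No tissue list was at background throughout, but the fat body markers Fbp1 and Lsp2 lay below the array median on all arrays. In that list only apolpp lay above it. The hemocyte markers He and Hml and the neuronal marker VGlut also lay below the array median on all arrays. The part of tissue shares or embryo age in the muscle gene differences was not tested.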

How the data were processed

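RNA of 3 trh null and 3 wild type embryo samples was amplified from the 3′ end and hybridised to Affymetrix Drosophila Genome 2.0 arrays, which use 1 colour, per the labels' protocols. The deposited values are log2 signals per probe set, with base 2 inferred from their range. RMA and Partek are named, without versions, per the submitters' processing notes. RMA as generally run equalizes the arrays' quantiles and so can hide a change shared by all transcripts. Groups came from the sample titles.

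After 183 control probe sets were left out, 18769 were fitted with limma 3.58.1 in R 4.3.3. The model held genotype alone, with Benjamini-Hochberg adjustment of p over these probe sets (threshold 0.05). Gene names came from the platform annotation, chromosome arms and lengths from the RefSeq Release 6 table. Probe sets naming several genes were not used. Probe sets of the classes that can match other transcripts were kept where a single gene was named. Members and lists were chosen with earlier results of these data known. Every member is named, with up to 4 genes per list that passed, or 2 where none did. Ratios between probe sets of one gene (both brighter than the median), gene length and counts without wild type array 2 were added after the data were seen, and p-values of ratios were adjusted over 528 ratios. The fit was tested on simulated data. Tables were made with pandas 2.3.3 in Python 3.11.15. Alternatives were another prior, quantile, median and cyclic loess scaling, a filter on the 40% dimmest probe sets, the mean over probe sets, a replicate block and each array left out.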

Additional observations from a re-analysis of the deposited data

How the results depend on the processing

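Median centring, quantile normalization, cyclic loess, a trended robust prior, leaving out the 40% dimmest probe sets (24 muscle genes kept) and the mean over probe sets gave 8 or 9 falling and 1 rising muscle gene, against 9 and 1, with a median log2 difference from -0.55 to -0.29. The rising gene was Msp300 except with the mean over probe sets, where it was tmod. For the other muscle genes they gave 6 or 7 falling and 5 rising, against 7 and 5. A pairing by the replicate numbers of the titles was not seen in the values. The correlation of deviations between same-numbered samples was -0.37, -0.06 and -0.05, against -0.18 to 0.37 between differently numbered samples. With deviations from means of 3 arrays this check cannot exclude a pairing. With the replicate number as a block, 4 muscle genes fell and 0 rose, and of the other muscle genes 4 fell and 2 rose. The muscle genes that fell were TpnC73F, Prm, Mp20 and TpnC41C. The block ended the calls of up (limma adjusted p = 0.0522), Mlp60A (0.0556), Msp300 (0.0735), Mlc1 (0.0778), Mf (0.0997), Tm2 (0.104) and Actn (0.137). With each array left out in turn, 3 to 14 muscle genes fell and 0 to 3 rose, with a median difference from -0.54 to -0.26, and 3 to 11 of the other muscle genes fell and 2 to 5 rose. The highest counts of falling genes were those without wild type array 2 and the lowest those without trh null array 3. Without wild type array 2, 14.8% of all genes fell and 17.4% rose, against 7.31% and 6.79% with all arrays. Shares of all genes in the other settings are not given here, so a change in count between settings need not be particular to muscle genes. Leaving out an array also takes 1 of 3 replicates away, so a lost call need not point at that array. Differences that changed sign were small, rested on wild type array 2 or, for Ca-beta and cib, changed with the mean over probe sets. With an array left out, Act88F ranged from -0.090 to 0.044, Strn-Mlck from -0.40 to 0.048, tmod from -0.0063 to 0.51, bt from -0.87 to 0.66, Zasp52 from -0.24 to 0.35 and apolpp, a fat body marker, from -0.089 to 0.72. The probe set ratio of Strn-Mlck ranged from -0.39 to 0.21 and that of mys from -0.0058 to 0.046. Act88F was 0.0045 with quantile normalization and 0.0011 with cyclic loess, against -0.03. The mean over probe sets gave 0.033 for Ca-beta and -0.035 for cib, against -0.44 and 0.36 with the brightest probe set. The cause was not tested. Signal near background limits what can be said of fln, Act88F, TpnC4 and Zasp67, and of the sizes of the falls in jp, Scp1 and Ca-beta.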
